A study of Arabidopsis thaliana with 12 samples.

Results

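*PORA* (AT5G54190), *PORB* (AT4G27440) and *PORC* (AT1G03630) are the 3 *Arabidopsis thaliana* genes for NADPH:protochlorophyllide oxidoreductase (POR), and they were taken by their AGI loci from the 33601 loci with counts. All 3 were read in each of 12 RNA-seq libraries, 3 biological replicates in each of 4 groups. The groups were *pifq* dark linc (the *pif1pif3pif4pif5* quadruple mutant on medium with 0.5 mM lincomycin), *pifq* dark (the same mutant without the drug), WT dark linc (wild type on 0.5 mM lincomycin) and WT dark (wild type without it). Every group was made of whole seedlings in the Columbia background, harvested when 3 days old. They were given a short period of white light to start germination and then kept in darkness. The paper describes untreated *pifq* in darkness as largely resembling light-grown wild type, with separated cotyledons and plastids partly developed into chloroplasts. It reports that lincomycin suppressed these traits in *pifq*. The mutant lacks 4 phytochrome-interacting factors (PIFs), transcription factors that accumulate in the dark, and it was represented by 1 quadruple line. Lincomycin blocks protein synthesis in plastids and activates retrograde signalling (RS) from the plastid to the nucleus. The libraries measure whole seedlings, so fewer cells with POR transcripts and less transcript per cell cannot be told apart.

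POR reduces protochlorophyllide to chlorophyllide, a step in chlorophyll synthesis that in flowering plants needs light. In dark-grown seedlings PORA and PORB, bound to their substrate and NADPH, build up in the prolamellar bodies of etioplasts, ready for the first light. In the light the *PORA* transcript is lost, *PORB* is kept, and *PORC* belongs to green tissue.

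The 3 transcripts are similar enough that the separation of their reads bears on every value below. The authors counted reads on the coding strand over the 500 nt at the 3′ end of each transcript, to prevent false counts. This length is the same for every gene, so counts of different genes are set side by side below without a correction for length. Whether the same share of each gene's reads fell in that window was not tested. In RefSeq's TAIR10.1 annotation, which was used only for sequence, *PORA* lies at chr5:21990864-21992814 on the minus strand (5 exons, 405 residues), *PORB* at chr4:13725546-13727440 on the plus strand (4 exons, 401 residues) and *PORC* at chr1:907523-909650 on the plus strand (5 exons, 401 residues). In this annotation the last 500 nt hold the 3′ untranslated region and 181 coding nt of *PORA*, 167 of *PORB* and 95 of *PORC*. The authors counted on representative TAIR10 transcripts, and whether those end at the same bases was not tested. The last coding exons, each of 156 nt and ending with the stop codon, are shown because the coding part is where these 500-nt ends are most alike. Only the last 95 nt of the *PORC* exon lie in its 500-nt end. Capitals mark the 47 positions at which the 3 genes are not all equal, and the other 109 are shared by all 3.
PORA: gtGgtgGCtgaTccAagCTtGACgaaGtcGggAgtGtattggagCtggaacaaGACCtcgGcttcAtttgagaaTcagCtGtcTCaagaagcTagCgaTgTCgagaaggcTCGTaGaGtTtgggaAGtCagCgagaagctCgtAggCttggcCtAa
PORB: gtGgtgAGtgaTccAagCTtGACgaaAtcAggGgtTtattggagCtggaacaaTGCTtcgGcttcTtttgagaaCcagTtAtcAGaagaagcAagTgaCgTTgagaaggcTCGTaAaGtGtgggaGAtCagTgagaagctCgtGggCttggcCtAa
PORC: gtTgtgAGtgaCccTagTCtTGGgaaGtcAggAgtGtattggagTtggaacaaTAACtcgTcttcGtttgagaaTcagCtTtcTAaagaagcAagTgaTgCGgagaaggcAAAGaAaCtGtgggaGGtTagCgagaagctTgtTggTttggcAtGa
In this exon *PORA* and *PORB* were equal at 84% of the bases, *PORA* and *PORC* at 76.9%, and *PORB* and *PORC* at 75.6%. The longest run of equal bases shared within the 500-nt ends was 18 nt for *PORA* and *PORB*, 14 nt for *PORA* and *PORC* and 13 nt for *PORB* and *PORC*. The authors' alignment allowed a single mismatch, so a read could match another POR over a longer stretch than these runs. How many reads did so was not tested. No other gene matched a POR 3′ end at 90% identity or more.

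Promoters of *PORA* and *PORB*, the pair of PORs that was lower in *pifq* than in WT in the comparisons below, are given as the 250 bases before the annotated start of each gene. They were searched on both strands for the G-box CACGTG and the PBE-box CACATG, which PIFs bind, for CCAATC, a putative binding site of the GLK transcription factors, and for the light-responsive element GATAA. Capitals mark the matches, which read TTATC where GATAA lies on the opposite strand. PORA is read from chr5:21992815-21993064 on the minus strand and PORB from chr4:13725296-13725545 on the plus strand, both of TAIR10.1.
PORA: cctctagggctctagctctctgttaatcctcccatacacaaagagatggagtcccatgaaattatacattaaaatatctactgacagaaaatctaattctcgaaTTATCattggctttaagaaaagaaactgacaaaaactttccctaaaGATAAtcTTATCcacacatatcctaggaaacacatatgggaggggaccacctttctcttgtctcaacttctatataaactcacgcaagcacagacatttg
PORB: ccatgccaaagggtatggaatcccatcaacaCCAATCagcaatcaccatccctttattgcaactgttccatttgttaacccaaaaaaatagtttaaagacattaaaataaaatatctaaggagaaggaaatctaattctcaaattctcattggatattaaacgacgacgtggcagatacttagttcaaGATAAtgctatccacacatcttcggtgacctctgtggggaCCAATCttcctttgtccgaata
The *PORA* promoter held GATAA 3 times, beginning 146, 100 and 93 bases upstream of the start. The *PORB* promoter held CCAATC at 219 and 22 bases upstream and GATAA at 62 bases. None of the 4 motifs was found in the same window of *PORC*, and no matches overlapped. Among 27443 promoters of this length, GATAA was present in 54.9%, CACATG in 11.1%, CCAATC in 10.2% and CACGTG in 6.49%. A local alignment joined 98 bases of the *PORA* and *PORB* promoters, 76 of them equal (77.6%).

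*PORC* has 2 annotated starts, at 907523 and 907651 on chromosome 1, and 3 matches lie between them, in the leader of the longer transcript: a G-box, a GLK-type motif and a GATAA. The sites of the G-box and the GLK-type motif, which fewer genes have than GATAA, are printed with 12 bases on either side and the motif in capitals, the G-box from chr1:907586-907615 and the GLK-type motif, which is CCAATC on the opposite strand, from chr1:907552-907581.
PORC G-box: tagcctggaagaCACGTGtcactaacccaa
PORC GLK-type: aactagtgatctGATTGGttgagggaaaaa
The G-box begins 101 bases, the GLK-type motif 135 bases and the GATAA 76 bases before the start codon. Within the 500 bases before the start codon, *PORC* was the only POR with a G-box, which 9.3% of 27443 genes have there, *PORB* and *PORC* had CCAATC, which 21.2% have, and all 3 PORs had GATAA, which 77.2% have. A match of letters is a description and was not tested for binding.

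The libraries held between 11495950 and 17612505 counts. Levels are given as normalized CPM, that is, counts scaled to a library size of 1e+06 corrected by edgeR's TMM factor, and changes were tested by edgeR's quasi-likelihood (QL) method wherever a gene reached 5 CPM in 2 or more libraries, with p-values adjusted by Benjamini-Hochberg (BH) and called when at most 0.05. *PIF1*, *PIF3* and *PIF5* transcripts were lower in *pifq* dark than in WT dark (log2 fold changes of −4.82, −6.04 and −3.75), while reads on the 3′ end of *PIF4* were higher (0.62, BH-adjusted p = 0.0218 by edgeR's QL test), which does not check the label for that gene. With library totals in place of TMM, the median gene shifted by −0.38 on the log2 scale for *pifq* dark against WT dark and by 0.33 for *pifq* dark linc against *pifq* dark. On those totals 1261 genes were called higher and 6317 lower in *pifq* dark than in WT dark, whereas TMM gave 2831 higher and 2686 lower. The 11 seed storage and late embryogenesis transcripts, which mark ungerminated seed, all had counts and summed to between 21.1 and 44.4 normalized CPM in *pifq* dark linc and between 30.2 and 49.2 in *pifq* dark, against 53.9 to 155.6 in WT dark linc and 78.0 to 146.6 in WT dark. The 5 root hair transcripts summed to between 9.31 and 13.7 in *pifq* dark linc, 5.80 and 8.06 in *pifq* dark, 5.48 and 8.49 in WT dark linc, and 4.58 and 7.81 in WT dark. The part that either list's shift had in the POR values was not tested.

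*PORA* was read at the lowest level in *pifq* dark linc and the highest in WT dark. Its normalized CPM in replicates 1, 2 and 3 were 67.3, 77.0 and 68.9 in *pifq* dark linc, 228, 271 and 264 in *pifq* dark, 421, 546 and 496 in WT dark linc, and 890.1, 1331 and 1208 in WT dark. No library of any group overlapped a library of another, so the 4 groups stood in the rising order *pifq* dark linc, *pifq* dark, WT dark linc, WT dark. *PORA* was the 2411th most abundant of 14040 genes in *pifq* dark linc and the 722nd in *pifq* dark, against the 283rd in WT dark linc and the 76th in WT dark. The neighbours *pifq* dark and WT dark linc were separated by their ranges alone, since no test between those 2 groups was made.

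*PORB* was the most abundant POR in every library. It was read at 404, 440.0 and 388 normalized CPM in *pifq* dark linc, 1224, 1094 and 1323 in *pifq* dark, 576, 597 and 716 in WT dark linc, and 1421, 1953 and 1814 in WT dark. Here both drug-treated groups lay below both untreated groups, and the rising order was *pifq* dark linc, WT dark linc, *pifq* dark, WT dark. No libraries overlapped between groups, although the highest *pifq* dark library, at 1323, was close to the lowest WT dark library, at 1421. Between *pifq* dark and WT dark linc no test was made. By rank *PORB* was the 410th gene of 14040 in *pifq* dark linc and the 123rd in *pifq* dark, against the 200th in WT dark linc and the 43rd in WT dark.

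*PORC* had the lowest mean of the 3 PORs in every group, and its own level was highest in *pifq* dark. In replicate 3 of *pifq* dark linc it was level with *PORA* (69.04 against 68.88 normalized CPM). Its libraries gave 63.5, 64.5 and 69.0 normalized CPM in *pifq* dark linc, 187, 151 and 215 in *pifq* dark, 41.7, 41.1 and 43.9 in WT dark linc, and 53.5, 58.6 and 66.7 in WT dark. *pifq* dark stood apart from all other groups, *pifq* dark linc and WT dark overlapped, and WT dark linc was the lowest. Even the lowest count behind these values, 540 in replicate 1 of WT dark linc, carried a counting error of 4.30%. Such errors cover counting only, since the reads had no molecular identifiers and PCR copies are not independent molecules. *PORC* ranked 2584th of 14040 genes in *pifq* dark linc and 1006th in *pifq* dark, against 3818th in WT dark linc and 2818th in WT dark.

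**Figure D1:**
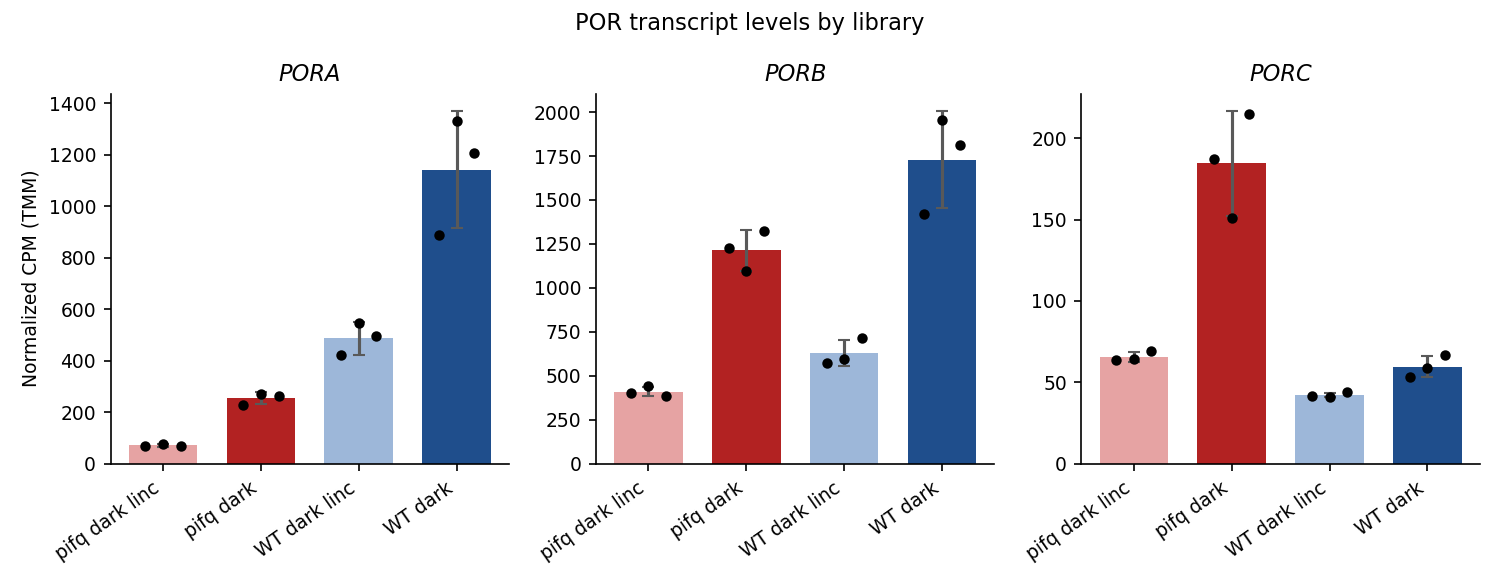
Normalized CPM (TMM) of *PORA*, *PORB* and *PORC* in the 4 groups, with 1 point per library, bars for the mean and error bars for the SD (n = 3), on a separate linear axis for each gene. *PORA* and *PORB* are highest in WT dark, at means of 1143 and 1730, and *PORC* is highest in *pifq* dark, at a mean of 184.

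The effect of the absence of the PIFs in the dark was read from *pifq* dark and WT dark. *PORA* and *PORB* were lower and *PORC* was higher in *pifq*, so the family split in direction. All 3 were called, in a comparison in which 41.0% of the 13456 genes tested were called, 21.0% higher and 20.0% lower. *PORA* averaged 254 ± 23.3 normalized CPM in *pifq* dark and 1143 ± 227 in WT dark (SD, n = 3 each), which was 4.52-fold lower (log2 fold change −2.18, standard error 0.18, BH-adjusted p = 2.43e-06 by edgeR's QL test). Only 1.06% of the genes tested had a lower log2 fold change. For *PORC*, 184 ± 32.2 normalized CPM in *pifq* dark stood against 59.6 ± 6.64 in WT dark, 3.08-fold higher (log2 fold change 1.62, standard error 0.15, BH-adjusted p = 8.62e-06 by edgeR), a larger value than that of 97.2% of the genes. The difference was smaller for *PORB*, with 1214 ± 115 in *pifq* dark and 1730 ± 276 in WT dark, 1.43-fold lower (log2 fold change −0.52, standard error 0.16, BH-adjusted p = 0.0236 by edgeR). The *PORB* call was lost without WT dark replicate 2 (adjusted p = 0.0701), WT dark replicate 3 (0.0865), *pifq* dark replicate 1 (0.0666) or *pifq* dark replicate 2 (0.0938), each by edgeR's QL test, and on library totals the *PORB* log2 fold change was −0.89, against the median of −0.38 of all genes. The summed seed transcripts, of 30.2 to 49.2 normalized CPM in *pifq* dark and 78.0 to 146.6 in WT dark, moved with this contrast. Much of that sum was *CRA1*, at a mean of 16.4 in *pifq* dark and 67.8 in WT dark. Not every member moved as far, with *CRU2* at 2.66 and 2.94 and *SESA1* at 0.498 and 0.526 in the same groups.

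The same contrast of genotypes was made with lincomycin present, and the 3 genes kept their directions. All 3 were again called, where 35.9% of 13557 genes were called, 17.4% higher and 18.5% lower. *PORA* averaged 71.1 ± 5.19 normalized CPM in *pifq* dark linc and 487 ± 63.0 in WT dark linc (SD, n = 3 each), 6.89-fold lower (log2 fold change −2.78, standard error 0.14, BH-adjusted p = 7.65e-13 by edgeR's QL test). *PORB* averaged 411 ± 26.7 in *pifq* dark linc and 630 ± 75.5 in WT dark linc, 1.54-fold lower (log2 fold change −0.62, standard error 0.13, BH-adjusted p = 0.000718 by edgeR). *PORC* averaged 65.7 ± 2.96 in *pifq* dark linc and 42.2 ± 1.47 in WT dark linc, 1.55-fold higher (log2 fold change 0.63, standard error 0.11, BH-adjusted p = 0.000127 by edgeR). The sums of both marker lists moved with this contrast. Seed transcripts summed to 21.1 to 44.4 normalized CPM in *pifq* dark linc and 53.9 to 155.6 in WT dark linc, of which *CRA1* averaged 9.96 and 69.9. Root hair transcripts summed to 9.31 to 13.7 in *pifq* dark linc and 5.48 to 8.49 in WT dark linc.

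Lincomycin was then compared with its absence in each genotype. In *pifq*, where the 4 PIFs are missing, all 3 PORs fell, by between 1.50 and 1.85 on the log2 scale. Of 13142 genes 23.2% were called, 13.5% lower and 9.68% higher, a balance that turned on library totals (859 genes lower and 5289 higher, in place of 1778 and 1272). *PORA* fell to 71.1 ± 5.19 normalized CPM in *pifq* dark linc, against 254 ± 23.3 in *pifq* dark (log2 fold change −1.85, standard error 0.12, BH-adjusted p = 3.40e-07 by edgeR's QL test), *PORB* to 411 ± 26.7, against 1214 ± 115 (−1.58, standard error 0.14, BH-adjusted p = 3.29e-06 by edgeR), and *PORC* to 65.7 ± 2.96, against 184 ± 32.2 (−1.50, standard error 0.14, BH-adjusted p = 6.30e-06 by edgeR). In fold terms these were 3.61, 2.98 and 2.83 times lower with the drug. Same-numbered libraries of these 2 groups deviated together, and a replicate block in the fit raised the genes called to 2633 higher and 2863 lower, with no POR call changed. On library totals the 3 log2 fold changes were −1.52, −1.25 and −1.17, against a median of 0.33 of all genes. The summed root hair transcripts, of 9.31 to 13.7 normalized CPM in *pifq* dark linc and 5.80 to 8.06 in *pifq* dark, moved with this contrast.

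In WT the drug response was large for *PORA* and *PORB* and small for *PORC*. All 3 PORs were called lower, in a comparison with few calls, 6.11% of 13455 genes, of which 3.08% were lower and 3.03% higher. *PORB* averaged 630 ± 75.5 normalized CPM in WT dark linc and 1730 ± 276 in WT dark (SD, n = 3 each), 2.78-fold lower (log2 fold change −1.47, standard error 0.15, BH-adjusted p = 1.18e-05 by edgeR's QL test), and 0.609% of the genes had a lower value. *PORA* averaged 487 ± 63.0 in WT dark linc and 1143 ± 227 in WT dark, 2.37-fold lower (log2 fold change −1.24, standard error 0.16, BH-adjusted p = 0.000140 by edgeR). *PORC* averaged 42.2 ± 1.47 in WT dark linc and 59.6 ± 6.64 in WT dark, 1.42-fold lower (log2 fold change −0.51, standard error 0.12, BH-adjusted p = 0.0212 by edgeR). This last call was lost without WT dark replicate 3 (log2 fold change −0.41, adjusted p = 0.160) and without any of the WT dark linc replicates (adjusted p = 0.0648, 0.0952 and 0.0727 by edgeR without replicates 1, 2 and 3). The counts of all genes called also rested on single libraries, with 157 to 1315 higher and 203 to 1388 lower when 1 was left out, the fewest without WT dark linc replicate 3 (higher) and WT dark replicate 3 (lower) and the most in both directions without WT dark replicate 2.

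Whether the response to lincomycin differed between the genotypes was tested as the interaction over all 12 libraries, the *pifq* response minus the WT response. *PORC* responded more strongly in *pifq*, with a log2 difference of −0.99 (standard error 0.18, BH-adjusted p = 0.00253 by edgeR's QL test), in a test that called 4.98% of 14040 genes, 3.75% lower and 1.23% higher (527 and 172 genes, against 270 lower and 1594 higher on library totals). On library totals the value was −0.65 (BH-adjusted p = 0.0410 by edgeR), against a median of 0.33 of all genes. *PORA* gave −0.61 (standard error 0.21, BH-adjusted p = 0.128 by edgeR) and was not called. It passed the threshold with the replicate number as a block (−0.61, adjusted p = 0.0236) and without WT dark replicate 2 (−0.73, adjusted p = 0.0471, both by edgeR), and on library totals it was −0.27. For *PORB* the difference was −0.11 (standard error 0.20, BH-adjusted p = 0.889 by edgeR), and its sign turned on library totals (0.23) and without WT dark replicate 1 (0.02).

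**Figure D2:**
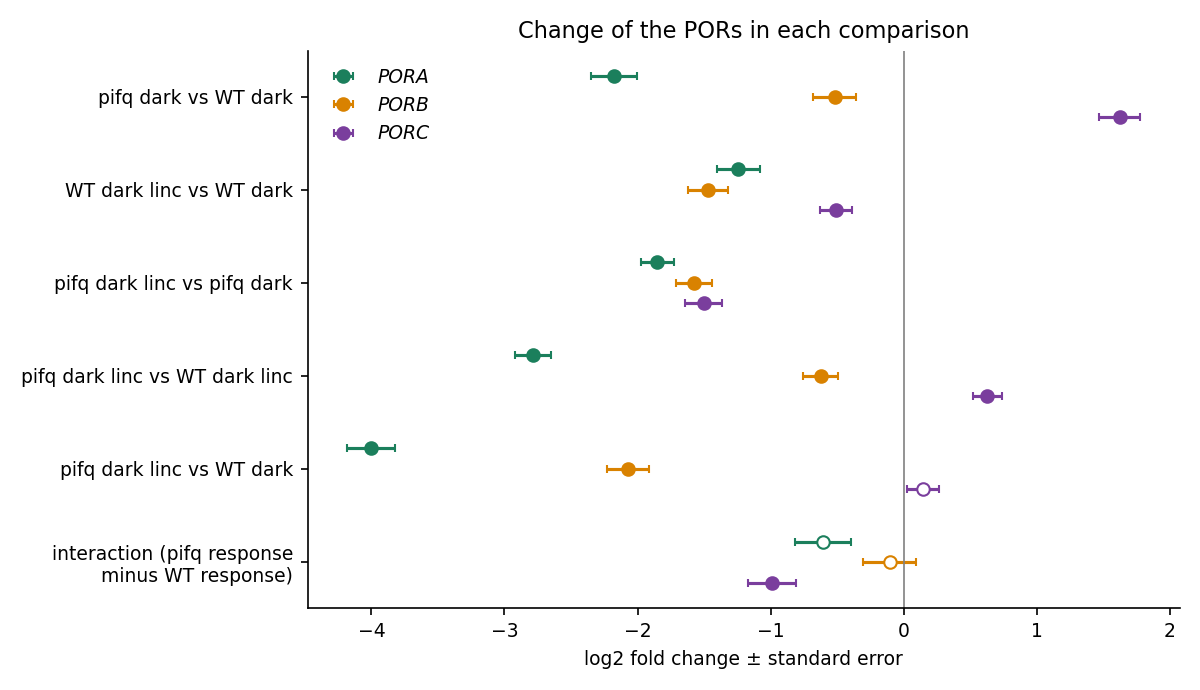
Log2 fold change (points) and standard error (bars) of each POR in the 5 group comparisons and in the interaction of genotype and lincomycin, with the comparisons from top to bottom, filled points for an adjusted p of at most 0.05 and open points above it. *PORA* and *PORB* lie left of 0 in every comparison, and *PORC* lies right of it, at 1.62 and 0.63, in the 2 comparisons of *pifq* with WT under the same treatment.

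Seedlings of *pifq* with lincomycin were also set against untreated WT. *PORA* and *PORB* were lower and *PORC* was not distinguished between the groups, where 48.2% of 13791 genes were called, 24.3% lower and 23.9% higher. *PORA* averaged 71.1 ± 5.19 normalized CPM in *pifq* dark linc and 1143 ± 227 in WT dark, 16.0-fold lower (log2 fold change −4.00, standard error 0.18, BH-adjusted p = 1.55e-09 by edgeR's QL test), and 0.123% of the genes had a lower value. *PORB* was 4.20-fold lower, at 411 ± 26.7 in *pifq* dark linc and 1730 ± 276 in WT dark (log2 fold change −2.07, standard error 0.16, BH-adjusted p = 2.59e-07 by edgeR). *PORC*, at 65.7 ± 2.96 in *pifq* dark linc and 59.6 ± 6.64 in WT dark, overlapped between the groups (log2 fold change 0.14, standard error 0.12, BH-adjusted p = 0.332 by edgeR). The comparisons share libraries, WT dark entering 3 of them, as did *pifq* dark linc, so their values are not independent. Seed transcripts summed to 21.1 to 44.4 normalized CPM in *pifq* dark linc and 78.0 to 146.6 in WT dark. Of them *CRA1* averaged 9.96 and 67.8, while *SESA1* went the other way, at 0.939 and 0.526. Root hair transcripts summed to 9.31 to 13.7 in *pifq* dark linc and 4.58 to 7.81 in WT dark.

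Summed over the 3 genes, POR transcripts took 547 ± 29.9 normalized CPM in *pifq* dark linc, 1652 ± 143 in *pifq* dark, 1159 ± 111 in WT dark linc and 2932 ± 507 in WT dark (SD, n = 3 each). Of the summed POR counts, *PORA* made up 13.0% ± 0.34 in *pifq* dark linc and 15.5% ± 2.13 in *pifq* dark, against 42.0% ± 3.56 in WT dark linc and 38.8% ± 1.11 in WT dark. *PORB* held 75.0% ± 1.06 in *pifq* dark linc and 73.4% ± 1.26 in *pifq* dark, against 54.3% ± 3.44 in WT dark linc and 59.1% ± 0.89 in WT dark. *PORC* held 12.03% ± 1.03 in *pifq* dark linc and 11.1% ± 1.03 in *pifq* dark, against 3.66% ± 0.31 in WT dark linc and 2.06% ± 0.27 in WT dark. The mean shares differed by more between genotypes than between treatments. *PORC* took nearly as large a share as *PORA* in *pifq* dark linc, and a much smaller one in both WT groups.

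**Figure D3:**
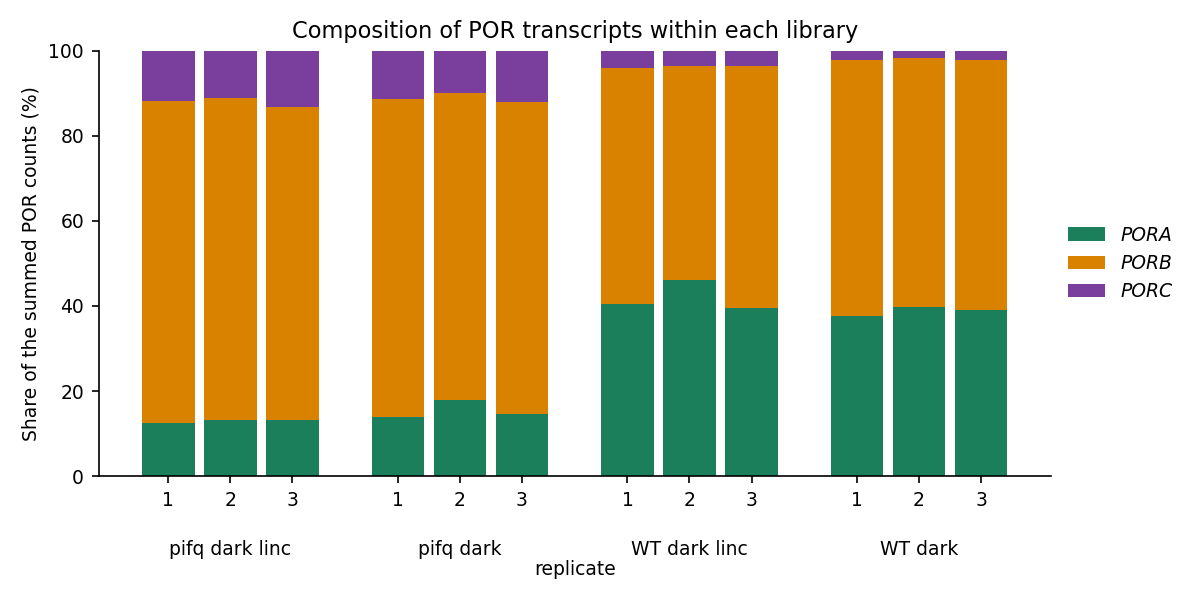
Share of the summed POR counts (%) taken by *PORA*, *PORB* and *PORC* in each of the 12 libraries, stacked to 100 and ordered by group and replicate. In the 6 *pifq* libraries *PORA* takes 12.6% to 17.9%, and in the 6 WT libraries 37.6% to 46.1%.

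Ratios of 2 PORs within a library do not depend on library size or on TMM, so they were tested by exact two-sided permutation, with labels exchanged within the genotype or treatment (400 arrangements, smallest possible p = 0.005, 6 tests adjusted together). *PORA* over *PORB* was lower in *pifq* by 1.91 on the log2 scale (3.75-fold, exact p = 0.005, adjusted p = 0.0075), with no overlap between the 6 *pifq* and the 6 WT libraries. *PORC* over *PORB* was higher in *pifq* by 1.69 (3.22-fold, exact p = 0.005, adjusted p = 0.0075), and *PORC* over *PORA* by 3.59 (12.05-fold, exact p = 0.005, adjusted p = 0.0075). Each held with and without the drug, and in both settings the groups did not overlap.

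Lincomycin moved the ratios less. It raised *PORC* over *PORA* by 0.54 on the log2 scale (1.46-fold, exact p = 0.005, adjusted p = 0.0075), by 0.36 in *pifq* and by 0.73 in WT, without overlap in either. *PORC* over *PORB* was higher with lincomycin by 0.52 on average (1.44-fold, exact p = 0.025, adjusted p = 0.03), with 0.09 in *pifq*, where the groups overlapped, and 0.96 in WT, where they were apart. This result missed the threshold without *pifq* dark replicate 2 (exact test, adjusted p = 0.054) and without *pifq* dark linc replicate 3 (0.06). For *PORA* over *PORB* the mean difference was −0.02 (exact p = 0.825, adjusted p = 0.825), with −0.28 in *pifq* and 0.23 in WT.

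The other genes of tetrapyrrole synthesis, of which 38 were listed and all 38 have counts, give the setting of the POR step. Of the 34 with enough counts in *pifq* dark or WT dark, 27 were called higher, 1 lower and 6 neither, with a median log2 fold change of 1.17, against 0.0016 over all genes, of which 21.0% were called higher and 20.0% lower. On library totals 4 listed genes were lower. *CAO*, which converts chlorophyllide *a* to *b*, was higher by 3.02, *CHLH*, the large subunit of magnesium chelatase, by 2.77, and *HEMA1*, glutamyl-tRNA reductase at the start of the pathway, by 2.73. The only listed gene called lower was *HCAR*, the hydroxymethyl chlorophyll *a* reductase (−0.66, BH-adjusted p = 0.0142 by edgeR's QL test), and that call was lost without WT dark replicate 3 (adjusted p = 0.0624) or *pifq* dark replicate 1 (0.0585). *PORC*, at 1.62, went with the larger count. *PORB*, at −0.52, lay below every tested gene of the list but *HCAR*, and *PORA*, at −2.18, lay below each of the 34. *HEMA3*, *HEMB2*, *HO3* and *HO4* had too few counts to be tested in any comparison.

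Under lincomycin in *pifq*, 26 of 34 listed genes were lower, 0 higher and 8 neither (median −0.78, against −0.0040 over all genes, of which 13.5% were called lower and 9.68% higher). At an unadjusted p under 0.05, 0 were higher by edgeR's QL test, and DESeq2 also called 0, whereas library totals gave 17 lower and 2 higher, and no filter on low counts gave 1 higher. *CAO* fell by 2.77, *HEMA1* by 2.54 and *CHLP*, geranylgeranyl reductase, by 2.21, and the 3 PORs, at −1.85, −1.58 and −1.50, lay within the range of the list. In WT the list divided otherwise, with 9 of 33 genes lower, 1 higher and 23 neither (median −0.10, against −0.012 over all genes, of which 3.08% were called lower and 3.03% higher). *GUN4*, which activates magnesium chelatase, fell by 2.41, *CHLH* by 1.77 and *CHL27*, a subunit of the cyclase, by 1.62, against −1.47 for *PORB* and −1.24 for *PORA*. The 1 gene called higher was *HY2*, phytochromobilin synthase (0.60, BH-adjusted p = 0.0249 by edgeR), a call lost without WT dark replicate 1 (adjusted p = 0.0551) or 3 (0.0597) or WT dark linc replicate 1 (0.0551) or 3 (0.135).

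**Figure D4:**
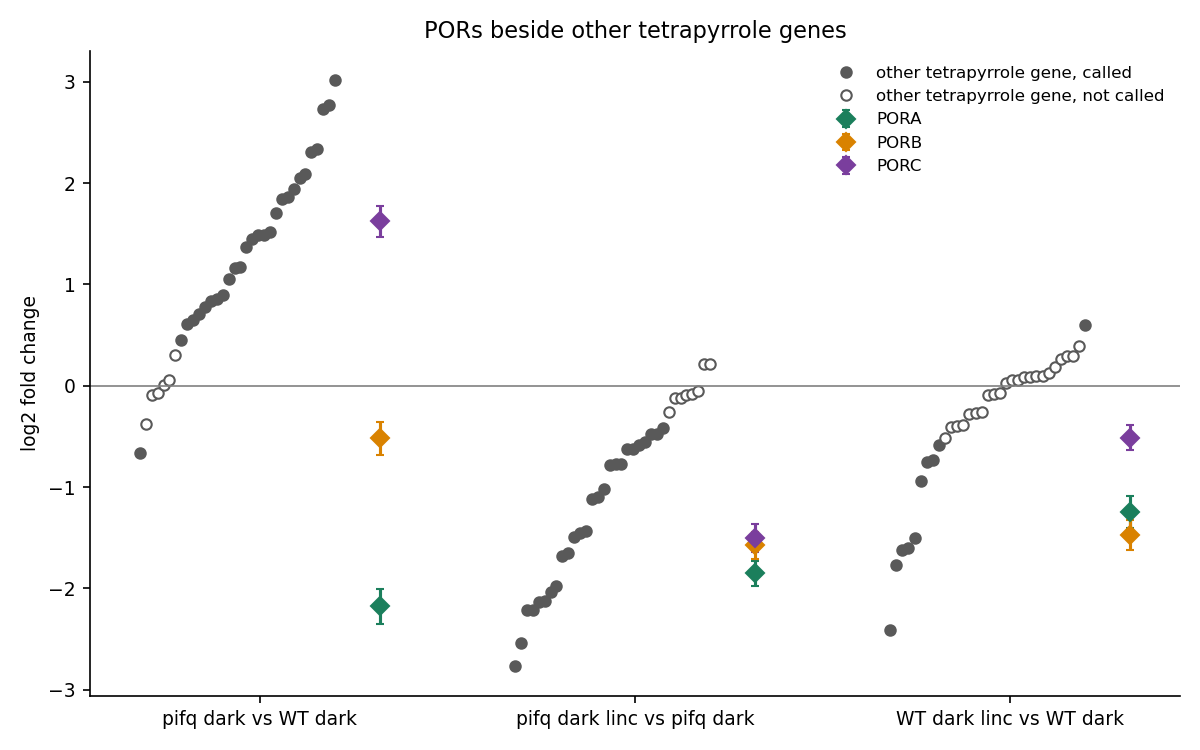
Log2 fold changes of the other tetrapyrrole genes, sorted within each of 3 comparisons (filled grey, adjusted p of at most 0.05, and open, above it), beside those of the PORs (diamonds, with standard errors). In *pifq* dark against WT dark *PORC*, at 1.62, lies among the list's higher genes and *PORA*, at −2.18, below all of them, whereas all 3 PORs lie below 0 under lincomycin in both genotypes.

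With lincomycin present, 16 of 33 listed genes were above and 2 below WT dark linc in *pifq* dark linc (median 0.42, against −0.0035 over all genes, of which 17.4% were called higher and 18.5% lower). *GUN4* (2.63), *CHLH* (2.40) and *CHL27* (1.90) led the higher genes, each above the 0.63 of *PORC*. *HCAR* (−1.34) and the haem oxygenase gene *HO1* (−0.37) were lower. The *HO1* call was lost with the replicate block (BH-adjusted p = 0.0536 by edgeR) and without replicate 1 or 2 of either group (adjusted p of 0.0654 to 0.0944). Between *pifq* dark linc and WT dark, 11 of 33 were higher, 4 lower and 18 neither. The median log2 fold change was 0.20, against −0.0043 over all genes, of which 23.9% were called higher and 24.3% lower. The divinyl reductase gene *DVR* (1.26), the cyclase factor *YCF54* (0.76) and *HO2* (0.76) were the most raised, *HCAR* (−1.26), *CHLP* (−0.70) and *HO1* (−0.63) were lowered, and *PORA* (−4.00) and *PORB* (−2.07) lay below all of them.

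The interaction of genotype and lincomycin was called lower for 15 of 34 listed genes and higher for 0, with 19 neither (median −0.72, against −0.0076 over all genes, of which 3.75% were called lower and 1.23% higher). At an unadjusted p under 0.05 0 were higher by edgeR's QL test, and DESeq2 called 0 as well. *HEMA1* (−1.60, standard error 0.16, adjusted p = 1.62e-05), the uroporphyrinogen decarboxylase gene *HEME1* (−1.46, standard error 0.24, adjusted p = 0.00125) and the porphobilinogen deaminase gene *HEMC* (−1.42, standard error 0.20, adjusted p = 0.000318, all by edgeR's QL test) had the strongest values, beyond the −0.99 of *PORC*. *HEMA1* averaged 123 ± 9.69 normalized CPM in *pifq* dark linc and 705 ± 14.7 in *pifq* dark, and 55.9 ± 4.27 in WT dark linc and 106 ± 5.34 in WT dark (SD, n = 3 each). Of the PORs, *PORC* shared this direction by test.

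Genes were ranked by how closely their log2 normalized CPM followed each POR over the 12 libraries, among 14039 others. These correlations describe 4 groups of 3 libraries that share genotype and drug, so most genes with the same order of group means score high, and no test was made. The PORs themselves gave r = 0.784 for *PORA* and *PORB*, 0.355 for *PORB* and *PORC* and −0.237 for *PORA* and *PORC*. None was among the 3 closest genes of another.

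Closest to *PORA* were *SIS* (AT5G02020, r = 0.971), the calmodulin-like gene *CML41* (AT3G50770, r = 0.965) and AT1G66855 (r = 0.964). *SIS* averaged 51.0 ± 5.08 normalized CPM in *pifq* dark linc, 92.7 ± 13.2 in *pifq* dark, 101 ± 14.02 in WT dark linc and 151 ± 19.9 in WT dark (SD, n = 3 each). It had the group order of *PORA* over a smaller span. *CML41* and AT1G66855 were read at low levels, at most 14.7 ± 4.43 and 5.25 ± 0.56 normalized CPM in WT dark. For *PORB* they were AT1G73120 (r = 0.950), the RING ubiquitin ligase gene *RMA2* (AT4G28270, r = 0.947) and *LHCB4.3* (AT2G40100, r = 0.946), a light-harvesting protein of photosystem II. *LHCB4.3* reached at most 5.27 normalized CPM in a WT dark library and 3.63 in any other, so that it, like AT1G66855, passed the filter on low counts only through the group in which the POR was highest. AT1G73120 averaged 278 ± 23.0 normalized CPM in *pifq* dark linc, 619 ± 41.9 in *pifq* dark, 382 ± 32.9 in WT dark linc and 661 ± 71.5 in WT dark (SD, n = 3 each).

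*PORC* had the closest companions, *FBA1* (AT2G21330, a plastid fructose-bisphosphate aldolase, r = 0.994), AT2G22230 (r = 0.993) and *DXR* (AT5G62790, an enzyme of plastid isoprenoid synthesis, r = 0.992). *FBA1* averaged 40.6 ± 2.57 normalized CPM in *pifq* dark linc, 162 ± 19.0 in *pifq* dark, 22.4 ± 1.58 in WT dark linc and 32.1 ± 3.19 in WT dark (SD, n = 3 each). *DXR* averaged 46.0 ± 2.96 in *pifq* dark linc, 93.8 ± 10.004 in *pifq* dark, 35.9 ± 0.72 in WT dark linc and 45.3 ± 5.45 in WT dark. As for *PORC*, both had their highest level in *pifq* dark and their lowest in WT dark linc, with *pifq* dark linc and WT dark between.

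**Figure D5:**
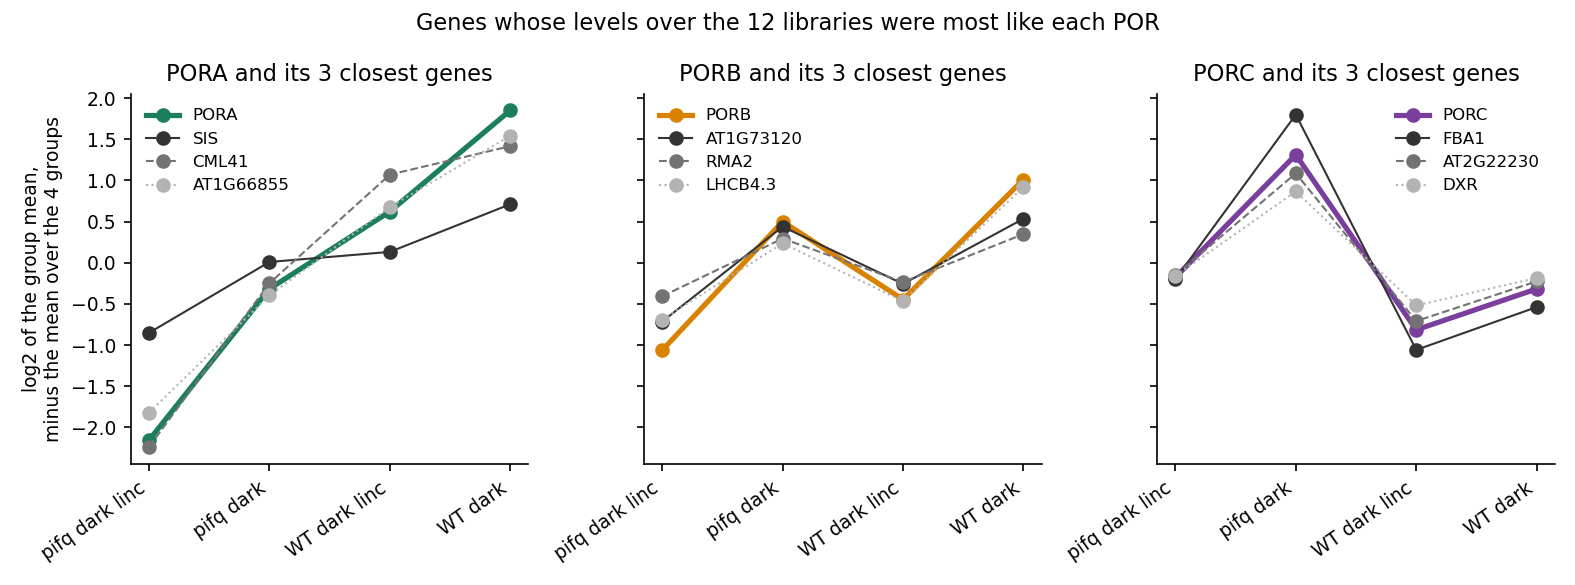
Log2 of the group mean in normalized CPM, minus the mean over the 4 groups, for each POR and the 3 genes whose levels over the 12 libraries followed it most closely (r from 0.946 to 0.994). The lines of *PORA* and *PORB* end highest at WT dark, and those of *PORC* and its companions peak at *pifq* dark.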

How the data were processed

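RNA from whole 3-day-old dark-grown seedlings was sequenced from polyA-tailed 3′-end fragments in directional libraries. The authors deposited unnormalized counts for each AGI locus. They aligned reads with Bowtie 0.12.7 to representative TAIR10 transcripts, allowing a single mismatch. Reads were counted on the coding strand of the 500 nt at the 3′ end. The labels mention technical duplicate runs, while the table has 1 column per library. How those runs were joined is not given in the sources used here. Columns were mapped to groups by the sample titles.

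Counts were analysed with edgeR 4.0.16 in R 4.3.3 by TMM normalization and the quasi-likelihood test (glmQLFit, glmQLFTest), on the 6 libraries of the 2 groups compared or, for the interaction, all 12, for genes reaching 5 CPM in 2 or more libraries. Adjusted p-values are Benjamini-Hochberg values over all genes tested, and the standard error is the log2 fold change divided by the square root of F. The methods of the study name edgeR and that filter, without its test or normalization. Library totals, between 11495950 and 17612505 counts, gave 540 to 34621 counts per POR and library. Counts of libraries from the same group gave a mean chi-square of 6.38 to 27.7 per gene, so no library was a copy of another. On counts simulated from these data with known changes of 2-fold, *pifq* dark against WT dark recovered 45 of 50 raised and 46 of 50 lowered genes, and the interaction 34 of 50 and 30 of 50. Unchanged genes called numbered 19 among 13018 tested and, for the interaction, 5 among 13548. Few genes were changed, as many raised as lowered, so the simulation did not cover the many calls of the data or their shift between TMM and library totals.

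Same-numbered libraries of *pifq* dark linc and *pifq* dark deviated together from their group means (r of 0.369 to 0.539 over 3 pairs), which is taken as a pairing from the data and not from the labels. Alternatives were RLE size factors, library totals, a replicate block, a single fit of all 12 libraries, edgeR's exact test, DESeq2 1.42.0, no filter on low counts, removal of genes over 1% of the counts and leaving out each library. Library totals for the r of the genes most like each POR were added after seeing the data. Named beside the PORs were, per comparison, the 3 genes called higher and the 3 called lower with the largest changes in the tetrapyrrole list, the 3 genes with the highest r to each POR, and the mutated PIF genes. The members and the lists were chosen with earlier results of these data known. Sequences and motif shares come from RefSeq's TAIR10.1 assembly. The deposited table has no coordinates.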

Additional observations from a re-analysis of the deposited data

Results flagged for a closer look

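The lincomycin response differed between *pifq* and WT, by a test of the difference, for *PORC* and 15 of the 34 tetrapyrrole genes tested, of which the 3 with the largest differences are given. Over all 14040 genes that test called 4.98%, with 527 genes (3.75%) lower and 172 (1.23%) higher, and library totals gave 270 lower and 1594 higher. On the log2 scale, the *pifq* response minus the WT response was −0.99 for *PORC*, −1.60 for *HEMA1*, −1.42 for *HEMC* and −1.46 for *HEME1*, all past an adjusted p of 0.05 in edgeR's quasi-likelihood test. In each of these 4 genes the level in *pifq* dark was above that in WT dark, with *PORC* at 184 ± 32.2 normalized CPM in *pifq* dark and 59.6 ± 6.64 in WT dark, and *HEMC* at 812 ± 113 and 247 ± 29.4 (SD, n = 3 each).

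The within-library ratio of *PORA* to *PORB* moved in opposite directions under lincomycin, by −0.28 on the log2 scale in *pifq* and by 0.23 in WT. The 3 treated and 3 untreated libraries did not overlap in either genotype. The difference between the 2 responses of the ratio was not tested. By library, the log2 ratios were −2.58, −2.52 and −2.49 in *pifq* dark linc and −2.43, −2.01 and −2.33 in *pifq* dark, and −0.45, −0.13 and −0.53 in WT dark linc and −0.68, −0.55 and −0.59 in WT dark, so that the gaps between the nearest libraries of the treated and untreated groups were small in both genotypes.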

How the results depend on the processing

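Of the 18 POR results, 14 kept their direction and their side of the threshold in every alternative, and of 264 alternative values 252 did so, while 2 reversed, 8 were weaker and 2 stronger. With 1 library left out, the *PORB* log2 fold change between *pifq* dark and WT dark lay between −0.65 and −0.41 and that of *PORC* between WT dark linc and WT dark between −0.58 and −0.41, and both lost their calls in 4 of these fits. The interaction lay between −0.73 and −0.46 for *PORA*, which passed with the replicate block (−0.61), and between −0.20 and 0.018 for *PORB*, which turned to 0.018 without WT dark replicate 1 and to 0.23 on library totals. The *PORA* to *PORB* ratio under lincomycin lay between −0.081 and 0.040, above 0 without WT dark linc replicate 3 (0.019) or *pifq* dark replicate 2 (0.040), and the *PORC* to *PORB* ratio between 0.47 and 0.56. The other ratios kept their calls in exact tests with each library left out and with the replicate block.

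Library totals changed the counts of genes called higher and lower to 1261 and 6317 in *pifq* dark against WT dark, 5289 and 859 in *pifq* dark linc against *pifq* dark, and 1594 and 270 in the interaction. The replicate block gave 959 and 1047 in WT dark linc against WT dark, 2633 and 2863 in *pifq* dark linc against *pifq* dark, and 264 higher in the interaction, and it changed no POR call other than that of the *PORA* interaction. For WT dark linc against WT dark, no filter gave 870 and 829 and edgeR's exact test 623 lower, and with 1 library left out 157 to 1315 were higher and 203 to 1388 lower. The same gave 669 to 1275 higher in *pifq* dark linc against *pifq* dark and 101 to 214 in the interaction.

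In the tetrapyrrole list, library totals gave 4 lower in *pifq* dark against WT dark, and 2 higher and 17 lower in *pifq* dark linc against *pifq* dark, where no filter gave 1 higher. In WT dark linc against WT dark the block and no filter each gave 2 higher, and the block gave 1 lower in *pifq* dark linc against WT dark linc. With 1 library left out, 0 to 1 were lower in *pifq* dark against WT dark, 0 to 4 higher in WT dark linc against WT dark, and 1 to 2 lower in *pifq* dark linc against WT dark linc. The correlations of the genes most like each POR were between 0.938 and 0.989 on library totals. The causes of these changes were not tested. Counting error was at most 4.30% for any POR value.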
